A study of Homo sapiens with 6 samples.

Results

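The beta-1,4-galactosyltransferases are the 7 enzymes encoded by B4GALT1 to B4GALT7. They were taken by gene symbol from the 20036 genes of the deposited expression table. All 7 were found, and all 7 passed the filter of a mean of at least 1 FPKM (fragments scaled to transcript length and sequencing depth), as 10547 genes did. The family came into view because B4GALT1 stood among the largest rises in an earlier analysis of these libraries. The values that chose it are those of B4GALT1 with both OGT siRNAs against the control, so these are given as a description with no test. B4GALT2 to B4GALT7 came in by family name.

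The libraries were made from KGN, an established human cell line that came from a tumour of ovarian granulosa cells. The cells received 1 of 3 small interfering RNAs (siRNAs) and were harvested 48 hours later. siOGT1 and siOGT2 were directed at OGT, and siNC was the negative control, with 2 libraries in each group and 6 in all. All groups share the transfection and the single cell line, and no untransfected cells were analysed. The sources used here do not state if the 2 libraries of a group were separate cultures, so the p-values measure only the spread between these libraries, which may be technical.

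Beta-1,4-galactosyltransferases sit in the Golgi membrane and transfer galactose from UDP-galactose, with manganese as the cofactor, onto an acceptor sugar. Galactose on N-acetylglucosamine makes N-acetyllactosamine (LacNAc), the unit that builds the antennae of N-glycans and the binding site of many galectins, whereas galactose on glucosylceramide starts the complex glycosphingolipids and galactose on xylose builds the linker of proteoglycans. OGT, the enzyme silenced here, places single N-acetylglucosamine residues on proteins of the nucleus and cytosol, which are not a natural substrate of these Golgi enzymes. An engineered form of B4GALT1 is used in the laboratory to tag the O-GlcNAc that OGT makes.

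The 7 genes lie on 6 chromosomes. In GENCODE release 29 on GRCh38, B4GALT1 (ENSG00000086062) occupies chr9:33104082-33167356 on the minus strand. B4GALT2 (ENSG00000117411) lies at chr1:43978943-43991170 on the plus strand, and B4GALT3 (ENSG00000158850) at chr1:161171310-161177968 on the minus strand. B4GALT4 (ENSG00000121578) lies at chr3:119211732-119241103, B4GALT5 (ENSG00000158470) at chr20:49632945-49713878 and B4GALT6 (ENSG00000118276) at chr18:31622247-31685836, all on the minus strand. B4GALT7 (ENSG00000027847) lies at chr5:177600100-177610347 on the plus strand.

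A stretch of 24 coding bases, read from the GENCODE transcripts, is shown for each gene. It was located by a preset pattern of amino acids, so much of the sharing follows from the search. It encodes the tryptophan and glycine of a flexible loop beside the active site, and capitals mark the 17 bases that all 7 genes share.
B4GALT1, chr9:33116005-33116028, minus strand: TGGGGcTGGGGagGaGAaGAtGAt
B4GALT2, chr1:43985363-43985386, plus strand: TGGGGcTGGGGtgGcGAgGAtGAt
B4GALT3, chr1:161173619-161173642, minus strand: TGGGGcTGGGGtgGtGAgGAtGAc
B4GALT4, chr3:119218664-119218687, minus strand: TGGGGaTGGGGagGcGAaGAcGAt
B4GALT5, chr20:49639692-49639715, minus strand: TGGGGtTGGGGtgGaGAaGAtGAc
B4GALT6, chr18:31627013-31627036, minus strand: TGGGGaTGGGGagGaGAaGAtGAt
B4GALT7, chr5:177608563-177608586, plus strand: TGGGGcTGGGGccGcGAgGAcGAc
Outside this stretch the genes differ widely. The encoded proteins, translated from the same transcripts, run from 327 residues for B4GALT7 to 398 for B4GALT1. B4GALT5 and B4GALT6 were the closest pair, with 71.5% of aligned residues identical. B4GALT1 and B4GALT2 shared 56.7%, B4GALT1 and B4GALT5 41.7%, and B4GALT7 shared between 30.1% and 33.9% with each of the others.

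OGT itself was measured at 13.8 and 12.9 FPKM with siOGT1 and at 14.3 and 14.7 FPKM with siOGT2, against 22.4 and 23.4 FPKM with siNC. These levels were 58.3% and 63.2% of that in siNC, with log2 fold changes of -0.74 (adjusted p = 9.3e-06) and -0.63 (adjusted p = 8.88e-06; SE 0.0435 each), both past the threshold in limma. Fold changes are on the scale of log2(FPKM + 1), and a gene was called when its p, adjusted by Benjamini-Hochberg over the 10547 genes tested, was under 0.05. Library totals implied by the FPKM values lay between 16756649 and 21416489 reads. Of 12 granulosa markers 6 averaged at least 1 FPKM, while FSHR was at 0 in all libraries. None of the 3 theca, 3 epithelial, 3 leukocyte or 3 endothelial markers did, and of 3 stromal markers COL1A1 did. The summed stromal level was 277 to 297 FPKM with siOGT1, 281 to 284 FPKM with siOGT2 and 259 to 272 FPKM with siNC. The summed endothelial level was 0.274 to 0.380, 0.508 to 0.529 and 0.606 to 0.659 FPKM in the same order of groups. The part of these markers in the results was not tested. In bulk RNA, fewer cells of a type and less RNA per cell cannot be told apart.

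B4GALT1, the main galactosyltransferase of N-glycan antennae and, with alpha-lactalbumin, the lactose synthase of the mammary gland, had 25.9 and 24.2 FPKM with siOGT1 and 25.8 and 25.8 FPKM with siOGT2, against 16.6 and 16.0 FPKM with siNC. The 4 OGT siRNA libraries all lay above both siNC libraries. The group means were 25.03 ± 1.18, 25.8 ± 0.00158 and 16.3 ± 0.444 FPKM (SD, n = 2 each), so the level was 153% of siNC with siOGT1 and 158% with siOGT2. The log2 fold changes were 0.59 and 0.63 (SE 0.0407 each), and no test is attached to them because this rise chose the family. Both comparisons share the same siNC libraries, so a level that siNC itself had altered cannot be told apart from one altered by both OGT siRNAs. The difference between the siRNAs was -0.04 for siOGT1 against siOGT2 (95% interval -0.14 to 0.05) and did not pass (limma adjusted p = 0.506). It uses the same OGT siRNA libraries that chose the family. A gene chosen for rising with both siRNAs may be favoured to differ little between them, so no conclusion is drawn from this result.

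B4GALT2, the closest relative of B4GALT1 and likewise able to make LacNAc, had 7.89 and 7.68 FPKM with siOGT1 and 9.25 and 10.03 FPKM with siOGT2, against 8.10 and 7.55 FPKM with siNC. Only the siOGT2 libraries stood apart, above the other 4, while the siOGT1 values fell inside the range of siNC. B4GALT2 rose to 9.64 ± 0.556 FPKM with siOGT2, against 7.82 ± 0.387 FPKM with siNC (SD, n = 2 each; log2 fold change 0.27, SE 0.0526, limma adjusted p = 0.00433). With siOGT1 the log2 fold change was -0.01 (95% interval -0.12 to 0.11, adjusted p = 0.956). The difference between siOGT1 and siOGT2 passed by itself at -0.28 (95% interval -0.39 to -0.16, limma adjusted p = 0.00738). Without siOGT2 replicate 2 it was -0.22 and missed the threshold (adjusted p = 0.0651).

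B4GALT3, which also makes LacNAc on N-glycans, had 5.17 and 6.01 FPKM with siOGT1 and 5.70 and 6.27 FPKM with siOGT2, against 6.05 and 5.71 FPKM with siNC. All groups overlapped. Its log2 fold changes were -0.06 (95% interval -0.22 to 0.09) with siOGT1 and 0.02 (-0.14 to 0.18) with siOGT2, and neither passed.

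B4GALT4, known for its preference for sulfated N-acetylglucosamine as in keratan sulfate, had 5.46 and 4.90 FPKM with siOGT1 and 5.16 and 4.91 FPKM with siOGT2, against 5.17 and 5.00 FPKM with siNC. These groups overlapped too. The log2 fold changes were 0.02 (95% interval -0.11 to 0.15) and -0.01 (-0.14 to 0.12), and neither passed.

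B4GALT5, a lactosylceramide synthase that adds galactose to glucosylceramide, had 15.5 and 13.9 FPKM with siOGT1 and 16.8 and 18.5 FPKM with siOGT2, against 22.2 and 20.9 FPKM with siNC. No group overlapped another, and siOGT1 was lowest. B4GALT5 fell to 14.7 ± 1.12 FPKM with siOGT1, which is 68.1% of the 21.6 ± 0.930 FPKM in siNC (SD, n = 2 each; log2 fold change -0.53, SE 0.0599, limma adjusted p = 0.000375). With siOGT2 it fell to 17.7 ± 1.20 FPKM, 81.8% of siNC (log2 fold change -0.28, SE 0.0599, limma adjusted p = 0.00724). The second call rested on few libraries, since the change was -0.23 without siNC replicate 1 (adjusted p = 0.0593) and -0.21 without siOGT2 replicate 1 (adjusted p = 0.0551). The difference between siOGT1 and siOGT2 was -0.25 (95% interval -0.38 to -0.11, limma adjusted p = 0.0210). It was -0.18 without siOGT1 replicate 2 (adjusted p = 0.110) and -0.18 without siOGT2 replicate 2 (adjusted p = 0.149).

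B4GALT6, the other lactosylceramide synthase and the closest relative of B4GALT5, had 2.32 and 2.31 FPKM with siOGT1 and 2.75 and 2.73 FPKM with siOGT2, against 2.25 and 2.51 FPKM with siNC. The siOGT2 libraries lay above the other 4, and the siOGT1 libraries lay inside the range of siNC. The siOGT2 difference from siNC was 0.15 (95% interval 0.01 to 0.29, unadjusted p = 0.0435) and did not pass after adjustment in limma (adjusted p = 0.0973). With siOGT1 it was -0.03 (95% interval -0.17 to 0.11), and between the siRNAs it was -0.17 (adjusted p = 0.0927). B4GALT6 therefore gave no call, and its siOGT1 interval leaves out the size of the change measured for B4GALT5.

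B4GALT7, which adds the first galactose to xylose in the proteoglycan linker and whose inherited loss causes a form of Ehlers-Danlos syndrome, had 2.80 and 2.57 FPKM with siOGT1 and 2.53 and 2.45 FPKM with siOGT2, against 2.41 and 2.82 FPKM with siNC. The siNC libraries spanned the values of all the others. The log2 fold changes were 0.03 (95% interval -0.13 to 0.19) and -0.05 (-0.21 to 0.11), and neither passed.

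**Figure D1:**
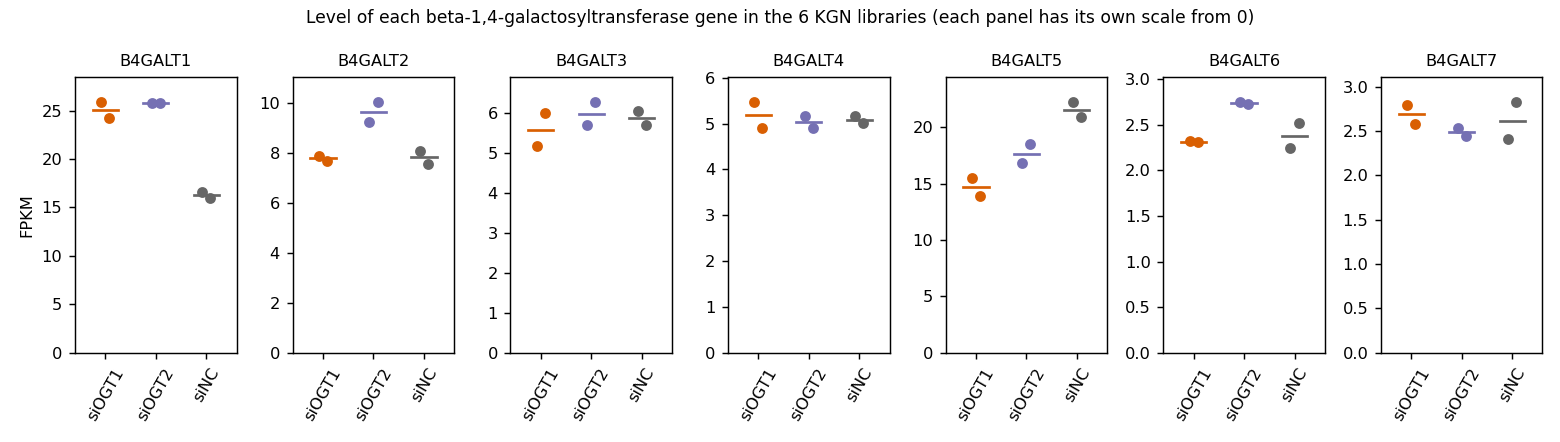
Level of each B4GALT gene in FPKM (vertical axis, each panel with its own scale from 0) in the siOGT1, siOGT2 and siNC libraries. Dots are libraries and bars are group means of 2. B4GALT1 lies between 24.2 and 25.9 FPKM in the OGT siRNA libraries and at 16.6 and 16.0 FPKM in siNC, while B4GALT5 lies between 13.9 and 18.5 FPKM and at 22.2 and 20.9 FPKM.

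Of the 6 members tested against siNC, 1 was called with siOGT1, where 17.6% of all genes were called (9.51% higher and 8.1% lower). With siOGT2 2 of 6 were called, where 35.5% of all genes were (22.1% higher and 13.4% lower). Between siOGT1 and siOGT2 2 of 7 members were called, both lower with siOGT1, where 16.6% of all genes were called (8.35% higher and 8.24% lower). The median log2 fold change of the members was -0.016, 0.005 and -0.086 in these 3 comparisons, and that of all genes tested was 0.032, 0.045 and -0.007. Nothing particular to the family is read from counts this small. The balance of directions over all genes depended on the scaling. With siOGT1 1003 genes were higher and 854 lower, but 548 and 1008 after scaling by a trimmed mean of log ratios. With siOGT2 2329 were higher and 1411 lower, but 1374 and 1865 after that scaling. The calls of B4GALT2 and B4GALT5 against siNC held under each of the 3 other scalings tried.

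**Figure D2:**
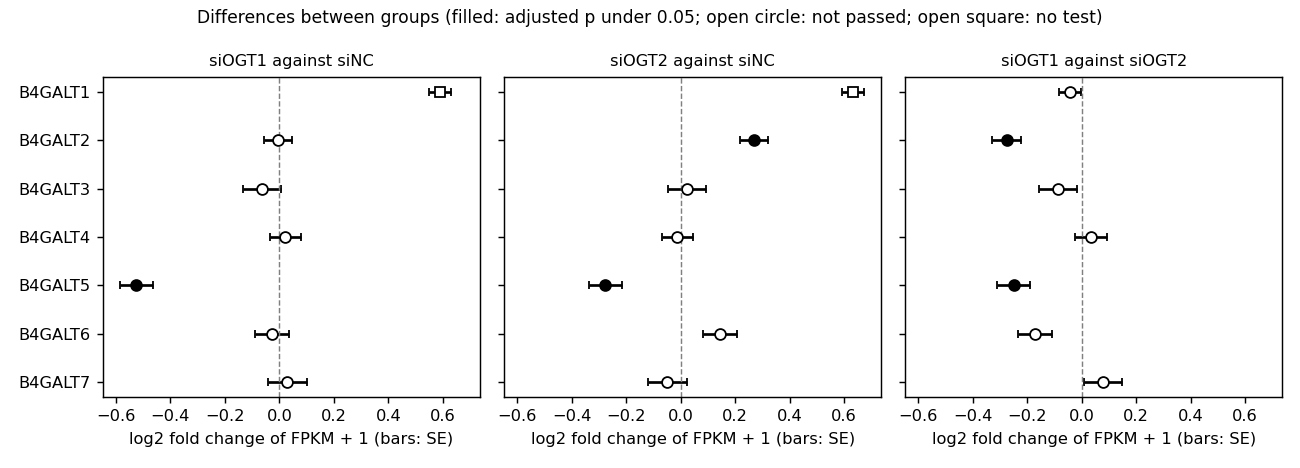
Log2 fold change of each B4GALT gene (on log2(FPKM + 1), with bars of 1 SE) for siOGT1 and siOGT2 against siNC and for siOGT1 against siOGT2. Filled circles passed the test, open circles did not, and open squares mark B4GALT1 against siNC, which has no test. B4GALT1 stands at 0.59 and 0.63, B4GALT5 at -0.53 and -0.28, and B4GALT2 at -0.01 and 0.27.

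FPKM is scaled to transcript length, so the levels of the genes can be set beside each other within a library. In siNC B4GALT5 was highest, followed by B4GALT1, B4GALT2, B4GALT3, B4GALT4, B4GALT7 and B4GALT6, and the ranges of only the last pair overlapped among neighbours in that order. With both OGT siRNAs B4GALT1 was highest and B4GALT5 next. B4GALT3 and B4GALT4 overlapped with siOGT1, and with siOGT2 B4GALT6 lay above B4GALT7 without overlap. Averaged over the 6 libraries, B4GALT1 lay above 81.5% of the genes tested, B4GALT5 above 75.9% and B4GALT6 above 17.4%.

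The exchange of places can be written as a ratio within each library, which does not depend on how the library was scaled. B4GALT1 stood to B4GALT5 at 1.67 and 1.74 with siOGT1 and at 1.54 and 1.40 with siOGT2, against 0.748 and 0.765 with siNC. The ratio was thus above 1 in all 4 OGT siRNA libraries and below it in both siNC libraries. It is a description, since the level of B4GALT1 chose the family. B4GALT1 made up 39.5% of the summed FPKM of the 7 genes with siOGT1 and 37.2% with siOGT2, against 26.4% with siNC. B4GALT5 made up 23.2% and 25.4%, against 35.0% with siNC. The sum itself was 63.3 ± 2.42 FPKM with siOGT1 and 69.4 ± 1.91 FPKM with siOGT2, against 61.7 ± 1.64 FPKM with siNC (SD, n = 2 each). Without B4GALT1 it was 38.3 ± 1.24 and 43.5 ± 1.91 FPKM, against 45.4 ± 1.19 FPKM with siNC. So the siOGT1 libraries had nearly the same summed message as siNC, made up differently.

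**Figure D3:**
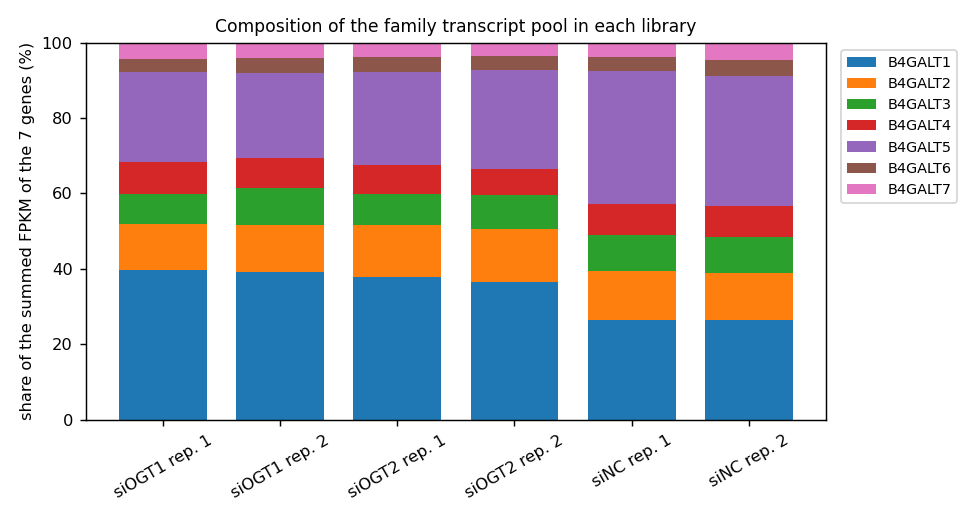
Share of the summed FPKM of the 7 B4GALT genes in percent (vertical axis) held by each gene in each of the 6 libraries. B4GALT1 holds 39.5% on average with siOGT1, 37.2% with siOGT2 and 26.4% with siNC, and B4GALT5 holds 23.2%, 25.4% and 35.0%.

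The members differed in depth. B4GALT1 had between 1575 and 2537 recovered reads per library and B4GALT5 between 1346 and 2115. B4GALT2 had 795 to 920, B4GALT4 575 to 734 and B4GALT3 370 to 501. B4GALT6 had 221 to 261 and B4GALT7 200 to 277, so that counting error alone was up to 7.07% of the B4GALT7 level, against 2.52% for B4GALT1. Genes on the opposite strand overlap some of these loci, and no source used here states if the reads kept their strand. PPOX, a haem synthesis gene, spans all 6659 bases of B4GALT3 and had 34 to 59 recovered reads, and B4GALT4-AS1 overlaps 14618 bases of the B4GALT4 locus. B4GALT1-AS1 overlaps 382 bases of B4GALT1, and an antisense gene covers 182 bases of B4GALT6. Reads from such partners cannot be told apart from those of the members where strand was not kept.

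The 3′ UTRs of the members were searched for a pair of heptamers that an earlier analysis had picked from these same libraries. Short matches to an siRNA in a 3′ UTR are a known way for siRNAs to lower unintended mRNAs. That reason concerns lowered mRNAs, whereas B4GALT1, which holds TCGGAGA, was higher with both OGT siRNAs. The longest annotated 3′ UTR of each gene was taken, for B4GALT4 from another transcript than its coding stretch. No source used here gives the sequences of the siRNAs, and the heptamers are no independent support for any result. The sites are shown, from the GENCODE transcripts on GRCh38, because B4GALT1 and B4GALT5 hold them, with the other members that hold one beside them. Capitals mark the heptamer.
B4GALT1, TCGGAGA, chr9:33113052-33113080, minus strand: ttcgtgaaaatTCGGAGAgtgctgctaaa
B4GALT5, GCTCTTA, chr20:49634120-49634148, minus strand: tgcattgcaaaGCTCTTAtcggctcatat
B4GALT5, GCTCTTA, chr20:49633109-49633137, minus strand: tttttgagcttGCTCTTAcgttttaagag
B4GALT6, GCTCTTA, chr18:31625539-31625567, minus strand: acttggagcgcGCTCTTAgtggaggtcag
B4GALT4, GCTCTTA, chr3:119212658-119212686, minus strand: tttaggatgaaGCTCTTAcaccaagtgtc
B4GALT2, B4GALT3 and B4GALT7 held neither. Their 3′ UTRs were also the shortest, at 722, 506 and 652 bases, against 2445 to 4496 bases for the other members, and a longer stretch holds any heptamer more often.

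Over all genes with a 3′ UTR searched, 1026 of 10492 held GCTCTTA (9.78%). With siOGT1 291 of these 1026 genes were called lower than siNC (28.4%), against 559 of the 9466 genes without it (5.9%). Of the 115 genes with at least 2 sites, as in B4GALT5, 48 were called lower (41.7%). With siOGT2 160 of the 1026 genes were called lower (15.6%), against 13.2% of the genes without the site, and 21 of the 115 with at least 2 sites were (18.3%). B4GALT5 is itself counted among the 48 genes with repeated sites that were lower with siOGT1, and it was also lower with siOGT2. The heptamer was picked from these same libraries, so these shares are no test of its part. Genes with and without it were not matched for 3′ UTR length. B4GALT4 and B4GALT6, with 1 site each, gave no call with siOGT1.

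TCGGAGA was rarer, in 232 of 10492 genes (2.21%). With siOGT1 51 of these 232 genes were called higher and 9 lower, against 950 higher and 841 lower of the 10260 genes without it. With siOGT2 95 were higher and 15 lower, against 2218 and 1390. The median log2 fold change of the genes with the heptamer was 0.0826 with siOGT1 and 0.1136 with siOGT2, against 0.0308 and 0.0437 for the genes without it. The part of either heptamer in the levels of B4GALT1 and B4GALT5 was not tested.

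Promoter motifs were searched in the RefSeq table (GRCh38.p14). In the 250 bases before the start, the GC box GGGCGG, searched on both strands with overlaps counted, occurred 7 and 6 times in the start windows of B4GALT1, 5 times for B4GALT7 and 3 times each for B4GALT4 and B4GALT5. The start windows of B4GALT1 overlap, so some of its boxes are counted in both. B4GALT2 and B4GALT3 each had 2 in 1 of their start windows and none in the other. Of all 35116 promoters 42.6% hold at least 1. B4GALT6 was not analysed here. No other member held TATAAA, which 10.7% of promoters hold. The E-box CACGTG occurred once, in B4GALT2 (6.3% of promoters), and CCAAT once, in B4GALT4 (32.0%), both searched on both strands.

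Genes with the profile most like a member were found by the root mean square difference of log2(FPKM + 1), centred on siNC, over the 6 libraries. For B4GALT1 the 5 nearest were ANXA7 (an annexin, difference 0.0547, Pearson r = 0.986), TCF3 (an E-protein transcription factor, 0.0639), CHST3 (a chondroitin sulfotransferase of the Golgi, 0.0653), FAM210B (a mitochondrial protein, 0.0770) and ZW10 (a kinetochore and membrane tethering protein, 0.0895). FAM210B and ZW10 each held 1 TCGGAGA. For B4GALT2 the nearest included the mitochondrial gene MT-CO2 (0.0225) and RAB39B (0.0265). For B4GALT5 the 3 nearest were CAVIN2 (a caveola protein, 0.0688), TPX2 (a spindle protein, 0.0688) and BCL2L13 (an outer mitochondrial membrane protein, 0.0727), each of which held 1 GCTCTTA. With 6 libraries in 3 groups many genes lie close to any profile, so these are descriptions. Over all genes with a 3′ UTR searched, 9.78% held GCTCTTA and 2.21% held TCGGAGA. The genes nearest to B4GALT5 were lower with siOGT1, and such genes held GCTCTTA more often. Of those called lower with siOGT1, 291 held it and 559 did not. Of those called higher with siOGT1, 51 held TCGGAGA and 950 did not. Both the heptamers and these nearest genes were picked from the same libraries, so the sites they hold are no independent support for any result.

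The galactose-bearing pathways around the family were followed in 9 lists with 164 genes, of which 114 passed the filter. With siOGT1 13 of the 114 were higher and 9 lower than siNC (19.3% called, median 0.04). With siOGT2 25 were higher and 11 lower (31.6%, median 0.061). Both shares lie near those of all genes, which were 17.6% and 35.5%. The counts of each list below stand beside all-gene shares of 9.51% higher and 8.1% lower with siOGT1. With siOGT2 these shares were 22.1% and 13.4%. Under the trimmed mean the split was 7 and 12 with siOGT1 and 19 and 19 with siOGT2. The siOGT1 count was 11 without siNC replicate 1 and 12 without siNC replicate 2, and without siOGT2 replicate 2 the siOGT2 count fell to 23.

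The N-glycan branching list holds enzymes that make the antennae B4GALT1 extends, and also mannosidases and FUT8. Of its 16 genes only 9 passed the filter and were tested. None was higher and 1 lower with siOGT1, and 2 were higher and none lower with siOGT2. MGAT5, which opens the branch that carries long LacNAc chains, had 3.97 and 3.68 FPKM with siOGT1 and 6.96 and 6.54 FPKM with siOGT2, against 4.78 and 5.23 FPKM with siNC. It therefore fell with siOGT1 (log2 fold change -0.32, limma adjusted p = 0.00628) and rose with siOGT2 (0.37, adjusted p = 0.00161). The siOGT1 fall was -0.26 without siNC replicate 2 (adjusted p = 0.0558). MAN1A1, a Golgi mannosidase that trims N-glycans before branching, had 9.68 and 10.0 FPKM with siOGT1 and 13.3 and 13.5 FPKM with siOGT2, against 10.5 and 11.2 FPKM with siNC, and only the siOGT2 rise passed (0.29, adjusted p = 0.0013). FUT8 and MGAT4B gave no call.

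LacNAc extension and capping had 1 of 9 genes higher with siOGT1, B3GNT9 at 0.21, and 1 higher and 2 lower with siOGT2. The B3GNT9 call missed the threshold in limma under the trimmed mean (adjusted p = 0.0647), without the filter (0.116) and without the intensity trend (0.0652). It was also lost without siNC replicate 1, siNC replicate 2 or siOGT1 replicate 2 (log2 fold changes 0.17, 0.25 and 0.13). B3GNT2, which lengthens LacNAc chains together with B4GALT1, averaged 24.9 ± 0.0239 FPKM with siOGT1 and 21.0 ± 0.862 FPKM with siOGT2, against 25.03 ± 1.45 FPKM with siNC (SD, n = 2 each, siOGT2 log2 fold change -0.24, limma adjusted p = 0.0038). GCNT2, which branches those chains, had 8.41 and 8.27 FPKM with siOGT1 and 6.56 and 6.13 FPKM with siOGT2, against 8.29 and 8.73 FPKM with siNC (siOGT2 -0.37, adjusted p = 0.000531). Both were thus lower with siOGT2, whose libraries lay below all the others. The sialyltransferase ST3GAL4 was the 1 gene higher with siOGT2, at 0.24, a call that was lost without siNC replicate 2 (adjusted p = 0.0504) or siOGT2 replicate 1 (adjusted p = 0.0605).

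Among 16 mucin-type and O-mannosyl genes, 3 were higher and 1 lower with siOGT1 (1 and 2 under the trimmed mean), and 6 higher and 3 lower with siOGT2 (4 and 3). GALNT3, which starts mucin-type chains, had 8.32 and 9.08 FPKM with siOGT1 and 8.40 and 8.05 FPKM with siOGT2, against 11.1 and 11.5 FPKM with siNC (log2 fold changes -0.34 and -0.41, limma adjusted p = 0.00165 and 0.000347). Its paralogue GALNT1 had 60.3 and 56.4 FPKM and 60.2 and 60.1 FPKM, against 50.3 and 50.4 FPKM with siNC (0.21 and 0.25, adjusted p = 0.00401 and 0.000854). Enzymes for the same first step thus moved in opposite directions with both siRNAs.

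The glycosphingolipid list covers glycosphingolipid synthesis around B4GALT5, and not only the steps after it. None of its 9 tested genes was higher against siNC, 2 were lower with siOGT1 (B3GALNT1 at -0.28 and UGT8 at -0.24) and 1 with siOGT2, and the medians were -0.126 and -0.089. Neither siOGT1 call survived leaving out any 1 siOGT1 or siNC library. The log2 fold changes then ran from -0.32 to -0.25 for B3GALNT1 and from -0.27 to -0.21 for UGT8. Both also missed the threshold in limma without the filter (adjusted p = 0.0954 and 0.0906), and UGT8 with a replicate block (0.0513). UGCG, the enzyme that makes the glucosylceramide on which B4GALT5 acts, had 25.9 and 27.2 FPKM with siOGT1 and 22.7 and 23.2 FPKM with siOGT2, against 27.2 and 28.0 FPKM with siNC. It fell with siOGT2 (log2 fold change -0.25, limma adjusted p = 0.000997) but gave no call with siOGT1 (-0.05), whereas B4GALT5 was lower with both. Under the trimmed mean 4 of the 9 genes were lower with siOGT2.

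Of 25 proteoglycan genes, 4 were higher and 1 lower with siOGT1 and 6 higher and none lower with siOGT2 (5 and 3 under the trimmed mean). CHST3, the gene also found near B4GALT1 above, had 40.6 and 39.5 FPKM with siOGT1 and 41.8 and 41.7 FPKM with siOGT2, against 27.4 and 28.2 FPKM with siNC. It rose by 0.51 and 0.57 (limma adjusted p = 1.3e-05 and 2.52e-06), close in size to B4GALT1. DSE, which makes iduronic acid in dermatan sulfate, rose by 0.26 and 0.22 (adjusted p = 0.00111 and 0.00181).

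The supply of donor and cofactor had 1 of 10 genes lower with siOGT1, and 2 higher and 1 lower with siOGT2 (1 and 2 under the trimmed mean). TMEM165, a Golgi membrane protein needed for the manganese on which galactosylation depends, had 11.2 and 10.8 FPKM with siOGT1 and 12.8 and 12.9 FPKM with siOGT2, against 13.7 and 13.5 FPKM with siNC. The siOGT1 fall passed (log2 fold change -0.28, limma adjusted p = 0.00103) and the siOGT2 difference did not (-0.08, adjusted p = 0.156). Of the 10 genes that remove galactose or LacNAc, none was called with siOGT1 and NEU1, a lysosomal sialidase, was the 1 lower with siOGT2 (-0.14). That NEU1 call missed the threshold in limma without the filter (adjusted p = 0.0759) and without the intensity trend (adjusted p = 0.0670). It was also lost without siNC replicate 1, siOGT2 replicate 1 or siOGT2 replicate 2 (log2 fold changes -0.10, -0.16 and -0.11).

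Galectins read LacNAc at the cell surface. The list of galectins, which also holds the galectin ligand gene LGALS3BP, had 6 genes tested, of which 2 were lower with siOGT1, and 3 were lower and 1 higher with siOGT2. Over all genes tested, 8.1% were lower with siOGT1, and 13.4% were lower and 22.1% higher with siOGT2. LGALS9 had 2.28 and 2.12 FPKM with siOGT1 and 1.20 and 1.07 FPKM with siOGT2, against 4.38 and 3.73 FPKM with siNC (log2 fold changes -0.66 and -1.24, limma adjusted p = 0.000429 and 3.95e-06). LGALS3BP, whose product is secreted, had 160 and 150 FPKM and 125 and 122 FPKM, against 217 and 205 FPKM with siNC (-0.44 and -0.77, adjusted p = 0.000101 and 1.62e-06). Both fell more with siOGT2 than with siOGT1, and both are known as interferon-responsive genes.

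The Golgi scaffold and tethering list had 5 of 20 genes higher and 1 lower with siOGT1 (3 and 1 under the trimmed mean). In the siOGT2 comparison 7 were higher and none lower (5 and 1 under the trimmed mean). Of all genes tested, 9.51% were higher with siOGT1 and 22.1% with siOGT2. GOLGA2, a cis-Golgi matrix protein, rose by 0.27 and 0.34 (limma adjusted p = 0.00312 and 0.0005). GOLM1, a Golgi membrane protein, had 26.7 and 25.2 FPKM with siOGT1 and 31.7 and 30.8 FPKM with siOGT2, against 34.4 and 32.3 FPKM with siNC, and fell only with siOGT1 among the calls (-0.35, adjusted p = 0.00049).

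**Figure D4:**
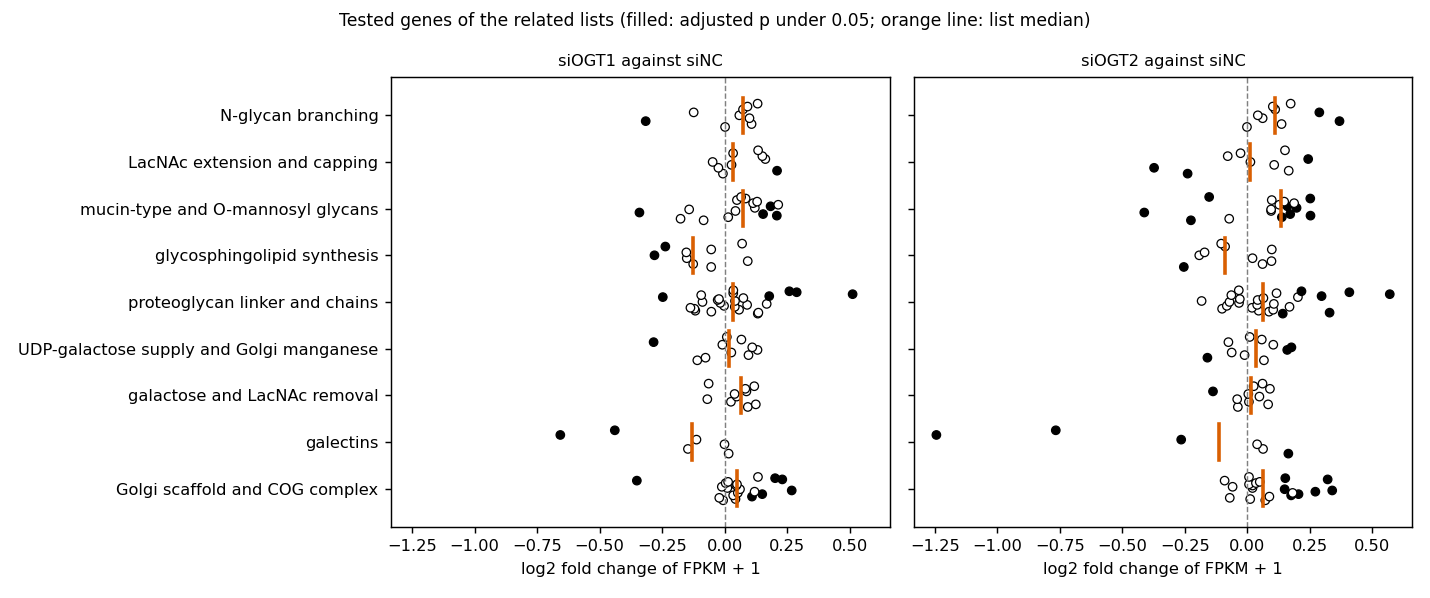
Log2 fold changes of the tested genes of 9 lists around galactosylation (1 dot per gene, filled where it passed the test, with an orange line at the list's median) for siOGT1 and siOGT2 against siNC. Medians by list run from -0.13 for galectins to 0.074 for mucin-type genes with siOGT1, and from -0.113 to 0.133 for the same lists with siOGT2.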

How the data were processed

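Per the submitters' processing notes, reads were trimmed with cutadapt 1.15 and aligned to GRCh38 with HISAT2 (no version stated). No source used here names the counting program or the annotation. The authors deposited FPKM values per Ensembl gene in 1 table of 6 libraries. Genes with a mean of at least 1 FPKM were tested with limma 3.58.1 in R 4.3.3 on log2(FPKM + 1), with a mean per group, 3 contrasts, an intensity trend in the empirical Bayes step (3 residual and 6.31 prior degrees of freedom) and Benjamini-Hochberg adjustment over all genes tested. Tests are two-sided.

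FPKM values were whole multiples, within 0.01 reads, of what 1 read is worth for 99.96% of genes tested. These recovered reads served for depth and for a voom alternative added after seeing the data, which called 2532, 4221 and 2274 genes (siOGT1 and siOGT2 against siNC, siOGT1 against siOGT2). They cover counting error only.

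The members and lists were chosen with earlier results of these data known. Named genes are the members, OGT, up to 4 genes per list with the smallest p against siNC, and the nearest profiles, of which 1 is not reported here. Genes named only to complete a count of 5 or fewer were chosen after their values were seen. The fit was tested on simulated data. Sequences were read with Python 3.11.15 and Biopython 1.88.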

Additional observations from a re-analysis of the deposited data

Results flagged for a closer look

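The results listed here differ between the siRNAs in limma's test of siOGT1 against siOGT2, with both groups also set against the same siNC libraries. Values are log2 differences, siOGT1 minus siOGT2, and 16.6% of all genes tested passed this contrast. In the family they were -0.28 for B4GALT2 and -0.25 for B4GALT5. Among N-glycan and LacNAc enzymes they were -0.41 for MAN1A1, -0.68 for MGAT5, 0.35 for GCNT2 and 0.23 for B3GNT2. C1GALT1, which makes the core of mucin-type glycans, differed by 0.14, UGCG by 0.20 and the lysosomal NEU1 by 0.22. The Golgi proteins TMEM165 and GOLM1 differed by -0.21 and -0.26. Of the galectin list LGALS3BP differed by 0.33, LGALS9 by 0.59, LGALS8 by 0.15 and LGALS1 by -0.15. Calls that ended when 1 library was left out were those of B4GALT2, B4GALT5, B3GNT2, C1GALT1, NEU1, LGALS8 and LGALS1. The C1GALT1 call was lost without any 1 of the 6 libraries (adjusted p between 0.0513 and 0.221), without the filter (0.104) or the intensity trend (0.0985), under quantile normalization (0.0541), with a replicate block (0.0506) and with only those groups in the fit (0.0532). Without siOGT2 replicate 2 the adjusted p was 0.0651 for B4GALT2, 0.149 for B4GALT5, 0.0719 for B3GNT2, 0.0573 for NEU1, 0.114 for LGALS8 and 0.151 for LGALS1. OGT itself did not pass in this contrast (-0.11, adjusted p = 0.123).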

How the results depend on the processing

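With 2 libraries per group, 17 alternatives were run, of which B4GALT6 and B4GALT7 entered 16, since a filter at a mean of 5 FPKM removed them. Without the filter on low values the siOGT1 against siNC calls fell to 1138 over all genes and 13 in the lists, and the siOGT1 against siOGT2 calls to 1017 over all genes. In that contrast 1 member was called without the filter and 1 without the intensity trend, since B4GALT5 then had adjusted p of 0.102 and 0.0569. Leaving out 1 library at a time gave 945 to 1737 genes for siOGT1 against siNC, 2222 to 3749 for siOGT2 against siNC and 816 to 1533 for siOGT1 against siOGT2, and in the lists 11 to 19, 23 to 36 and 9 to 17. Calls over all genes fell by more than 1.5 times without either siNC library (945 and 984 with siOGT1, 2327 and 2223 with siOGT2), without siOGT1 replicate 2 (1197), and without siOGT2 replicate 2 (2222 against siNC, 816 between the siRNAs) or siOGT2 replicate 1 (1068 between the siRNAs). List calls between the siRNAs fell to 13 without siOGT1 replicate 1 or siOGT2 replicate 1 and to 9 without siOGT2 replicate 2. Member calls were 1 throughout, 1 to 2 and 0 to 2 in the same order of contrasts. B4GALT5 with siOGT1 ran from -0.60 to -0.45 and B4GALT2 with siOGT2 from 0.22 to 0.32. Some members without a call changed sign. With siOGT1 against siNC the leave-one-out ranges were -0.0504 to 0.0391 for B4GALT2, -0.1574 to 0.0282 for B4GALT3, -0.0435 to 0.0874 for B4GALT4, -0.0835 to 0.0293 for B4GALT6 and -0.0538 to 0.1109 for B4GALT7. With siOGT2 against siNC they were -0.0373 to 0.0809 for B4GALT3, -0.042 to 0.0186 for B4GALT4 and -0.1316 to 0.0331 for B4GALT7. Between the siRNAs they were -0.0907 to 0.0018 for B4GALT1, -0.1792 to 0.0064 for B4GALT3 and -0.0318 to 0.0991 for B4GALT4. The trimmed mean put B4GALT4 with siOGT1 at -0.0072 and B4GALT3 with siOGT2 at -0.0209. The cause of these changes was not tested. Replicate numbers did not pair the samples: deviations correlated at -0.0218, -0.0262 and 0.0494 between the groups over 10547 genes. With a replicate block 1773, 3636 and 1674 genes were called, and 1, 2 and 2 members. The planned quasi-likelihood count test was not run, since the deposited values are FPKM.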
